A study of Mus musculus with 11 samples.

Results

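Genes that copy DNA were followed over 3 postnatal ages in muscle cells of Pax3GFP/+ mice, sorted for green fluorescent protein (GFP) and measured on Affymetrix arrays. The list held 33 genes of helicase loading, the replication fork, deoxynucleotide supply and chromatin assembly, of which 32 were measured among 18193 genes. Each gene was represented by the probe set that carried its symbol alone and had the highest mean over all 11 arrays. The choice used no comparison between ages, but the oldest age gave the fewest arrays to that mean. The part of this choice in the changes at that age was not tested. Chaf1a had no probe set with its symbol alone and is not described further. All mice carried GFP at the Pax3 locus on a C57BL/6J background, so that cells in which this muscle lineage factor is active could be gated. The labels describe proliferating satellite cells, the stem cells of skeletal muscle, from the trunk at postnatal day 1 (P1, n = 4 arrays) and day 12 (P12, n = 4 arrays). At day 28 (P28, n = 3 arrays) the satellite cells came from abdominal, pectoral and intercostal muscle. The series sets these ages as a span from proliferating to quiescent cells. Arrays of 1 age are labelled as biological replicates with no number of animals given, so p-values measure the spread between these arrays. For P28 the age, the muscles and the suffix of the internal sample names coincide and cannot be told apart. The internal names of the P28 samples begin with the same code as those of the P1 samples, which goes against their titles and stated age, and the titles were followed here.

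DNA is copied once per cell cycle. In G1 the origin recognition complex, Cdc6 and Cdt1 load rings of Mcm2 to Mcm7 around DNA, and in S phase Cdc45 and the GINS complex turn these rings into active helicases. Primase and DNA polymerase alpha start each strand, the polymerases delta and epsilon extend it on the clamp Pcna, and Fen1 and Lig1 join the Okazaki fragments. Many of these genes are textbook targets of E2F transcription factors, which the retinoblastoma proteins hold silent in resting cells. Genes of mitosis are transcribed later in the cycle, largely through paired NF-Y boxes and CHR elements in their promoters.

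The 180 bases before the annotated start of 6 replication genes and of 1 mitosis gene are shown here because they place these promoter elements in genes whose values follow. Sequences and positions come from RefSeq, build GRCm38.p6, and read 5′ to 3′ in the direction of the gene. Capitals mark matches on either strand to an E2F motif (TTTGGCGC, TTTCCCGC, TTTCGCGC or TTTGCCGC), to the NF-Y box (CCAAT) or to the CHR element (TTTGAA or TTCGAA).
Mcm5 (chr8:75109329-75109508, plus strand): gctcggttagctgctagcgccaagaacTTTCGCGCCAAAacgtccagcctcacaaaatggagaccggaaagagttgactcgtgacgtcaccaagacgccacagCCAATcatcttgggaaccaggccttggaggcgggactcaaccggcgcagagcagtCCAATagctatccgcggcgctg
Mcm6 (chr1:128359706-128359885, minus strand): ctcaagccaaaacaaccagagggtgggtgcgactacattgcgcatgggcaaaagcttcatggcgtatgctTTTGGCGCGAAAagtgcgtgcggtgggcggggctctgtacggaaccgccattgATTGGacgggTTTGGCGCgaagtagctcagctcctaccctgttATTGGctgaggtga
Orc1 (chr4:108579274-108579453, plus strand): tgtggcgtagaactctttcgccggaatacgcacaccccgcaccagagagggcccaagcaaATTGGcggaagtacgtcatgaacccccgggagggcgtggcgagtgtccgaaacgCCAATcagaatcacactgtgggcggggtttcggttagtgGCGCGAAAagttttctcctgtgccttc
Cdc6 (chr11:98907971-98908150, plus strand): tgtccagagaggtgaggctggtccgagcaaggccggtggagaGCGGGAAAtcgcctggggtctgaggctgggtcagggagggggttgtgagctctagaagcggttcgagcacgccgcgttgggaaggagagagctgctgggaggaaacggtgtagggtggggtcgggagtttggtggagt
Mcm10 (chr2:5012792-5012971, minus strand): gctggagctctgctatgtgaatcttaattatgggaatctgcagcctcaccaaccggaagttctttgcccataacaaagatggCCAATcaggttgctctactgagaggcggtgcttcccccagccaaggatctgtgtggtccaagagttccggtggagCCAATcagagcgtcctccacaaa
Pcna (chr2:132253181-132253360, minus strand): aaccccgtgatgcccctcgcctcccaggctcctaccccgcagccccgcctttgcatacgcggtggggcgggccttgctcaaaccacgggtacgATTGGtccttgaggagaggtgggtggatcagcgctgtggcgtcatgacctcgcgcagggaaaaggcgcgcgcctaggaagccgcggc
Kif11 (chr19:37376202-37376381, plus strand): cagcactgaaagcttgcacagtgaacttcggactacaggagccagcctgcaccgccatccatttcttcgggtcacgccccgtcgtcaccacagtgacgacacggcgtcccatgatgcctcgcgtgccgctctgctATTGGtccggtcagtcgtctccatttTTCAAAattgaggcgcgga
Mcm5 carried TTTCGCGC 153 bases before its start, overlapped by GCGCCAAA at 149 bases, and in Mcm6 TTTGGCGC at 110 bases overlapped GCGCGAAA at 106 bases, with a further TTTGGCGC at 47 bases. Orc1 had an E2F match at 27 bases and Cdc6 at 138 bases. The stretches of Mcm10 and Pcna held NF-Y matches and no E2F match, and that of Kif11, a mitotic motor, held an NF-Y and a CHR match. Mcm5 and Mcm10 had the largest differences among the ages in their groups of those in the promoter table. Orc1, Cdc6, Mcm6 and Pcna were chosen after their values and matches were seen. Kif11 was taken as the mitosis gene with the largest difference among the ages of those with a CHR match in this stretch, so its CHR match was a condition of the choice. The corresponding stretches of Pold1, Lig1, Tyms and Chaf1b, which led their groups, had 0 matches and are not printed.

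Over the window from 250 bases before to 50 after the start, 27 of the 33 listed genes had a promoter in the table. Those of Gmnn, Mcm4, Gins1, Gins2, Prim2 and Pole are not described. An E2F match was found in 11 of 27 genes (40.7%), in 26.0% of 50 other replication genes, in 4.55% of 22 mitosis genes and in 2.60% of all 27025 genes with a promoter. For the NF-Y box these shares were 55.6%, 58.0%, 86.4% and 41.1%, and for the CHR element 18.5%, 20.0%, 81.8% and 21.7%. By these shares, which were not tested, E2F letters were more frequent in the replication genes and CHR letters in the mitosis genes. A match is a run of letters and not a measured site, and the median GC content of the promoters also differed (57.7% in the replication genes, 58.8% in the mitosis genes, 52.7% in all genes). The 11 genes with an E2F match were Orc1, Cdc6, Cdt1, Mcm3, Mcm5, Mcm6, Mcm7, Pola1, Pold1, Rfc3 and Lig1. Their median log2 change in P28 against P12 was -0.94, and that of the 15 measured genes with a promoter and no match was also -0.94.

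**Figure D1:**
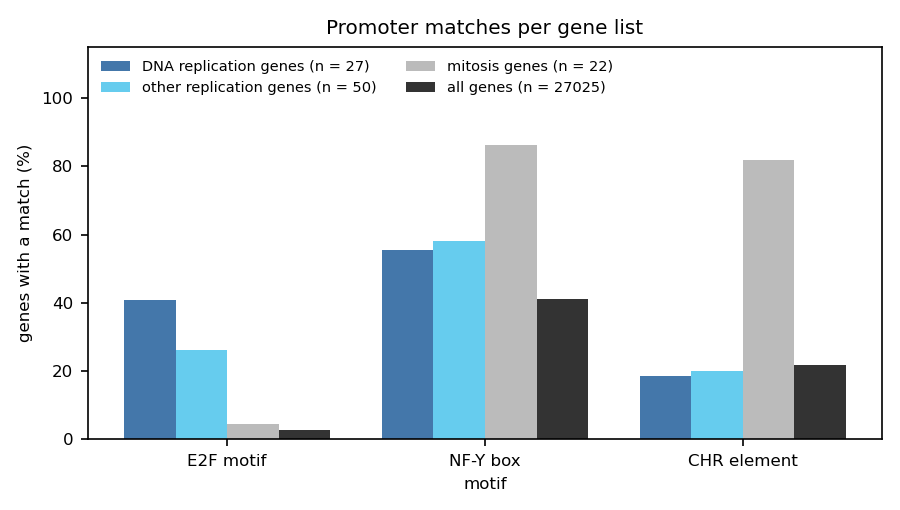
Share of genes (%, vertical axis) with at least 1 match to the E2F motif, the NF-Y box or the CHR element from 250 bases before to 50 after the start, for the replication genes, other replication genes, mitosis genes and all genes. E2F letters were in 40.7% of the replication genes and 4.55% of the mitosis genes, and CHR letters in 18.5% and 81.8%.

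All values below are deposited log2 RMA values, and changes are log2 differences ± SE from limma. Rose and fell stand for an adjusted p under 0.05 (Benjamini-Hochberg over 18193 genes). Background, read from the bacterial Trp controls, was 3.36 to 3.64 on the arrays. The satellite cell factors Pax7 (10.75, 10.78 and 10.72 at P1, P12 and P28) and Pax3 (8.29, 8.60 and 8.48) were called in no comparison, and 3 of 10 satellite cell markers (Calcr, Chodl and Des) rose in P28 against P12. In the same comparison 8 of 8 neutrophil, 7 of 8 endothelial, 6 of 10 macrophage, 4 of 6 erythroid and 4 of 7 fibro-adipogenic markers rose, where 15.7% of all genes did. Of the lymphoid markers 2 of 5 rose and 1 fell, and of the Schwann cell and melanocyte markers 0 of 7 rose and 1 fell. Among the fibro-adipogenic markers 1 fell. The summed level of the neutrophil markers was 9.03 to 10.79 at P1, 8.60 to 9.43 at P12 and 13.38 to 14.77 at P28 (log2 of the sum), and that of the macrophage markers 10.34 to 11.09, 10.21 to 10.49 and 11.59 to 12.61. The endothelial sum was 9.07 to 9.88, 9.46 to 10.08 and 11.03 to 11.71. The erythroid sum was 9.30 to 9.65, 9.82 to 9.90 and 10.95 to 12.72, and the fibro-adipogenic sum 13.39 to 14.11, 13.49 to 14.10 and 14.15 to 14.62. The P28 arrays were the highest for the neutrophil, macrophage, endothelial and erythroid sums, and by a narrow margin for the fibro-adipogenic sum. The part of these markers in the results was not tested. The Gapdh 3′ minus 5′ control difference, a measure of RNA quality, had a range of 1.62 to 2.79 at P1 and 1.32 to 3.05 at P12, while all P28 arrays read 0.79 to 0.99. P1 replicate 1 stood apart from the other P1 arrays, with Xist, the RNA of the inactive X chromosome, at 11.29 against 5.82 to 5.96. The P12 arrays (10.59 to 11.70) and the P28 arrays (10.66 to 11.81) resembled that array in Xist, so sex and age cannot be told apart in the comparisons with P1.

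Nearly the whole replication set was lower at P28 than at P12, while few genes passed the test between P1 and P12. In P28 against P12, 27 of 32 genes fell and 0 rose, where 15.7% of all genes fell and 15.7% rose, and the median log2 change was -0.94 (all genes -0.03). The P28 arrays lay below all P12 arrays for 26 genes and above them for 0 (19.4% and 17.5% of all genes). In P12 against P1, 3 genes rose (Pcna, Rrm1 and Rrm2) and 0 fell, where 4.53% and 2.04% of all genes did, 3 had all P12 arrays above all P1 arrays and 0 below (7.34% and 4.58% of all genes), and the median was 0.40 (all genes 0.02). In P28 against P1, 19 fell and 1 rose (Pcna), where 16.4% and 20.1% of all genes did, with a median of -0.57 (all genes -0.02), and the P28 arrays lay below all P1 arrays for 16 genes and above them for 1 (20.1% and 21.6% of all genes). At an unadjusted p under 0.05 in limma, 0 genes were lower at P12 than at P1 and 19 higher, and 0 were higher at P28 than at P12 and 30 lower. In P28 against P1, 1 was higher and 23 were lower at this threshold. The shares of all genes at an unadjusted p are not given, so these counts have no background to be set against. The mean was highest at P12 and lowest at P28 for 28 of 32 genes (19.8% of all genes), the others being Cdc45, Pola2, Pcna and Fen1. In bulk arrays a smaller share of replicating cells and less RNA per cell cannot be told apart.

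**Figure D2:**
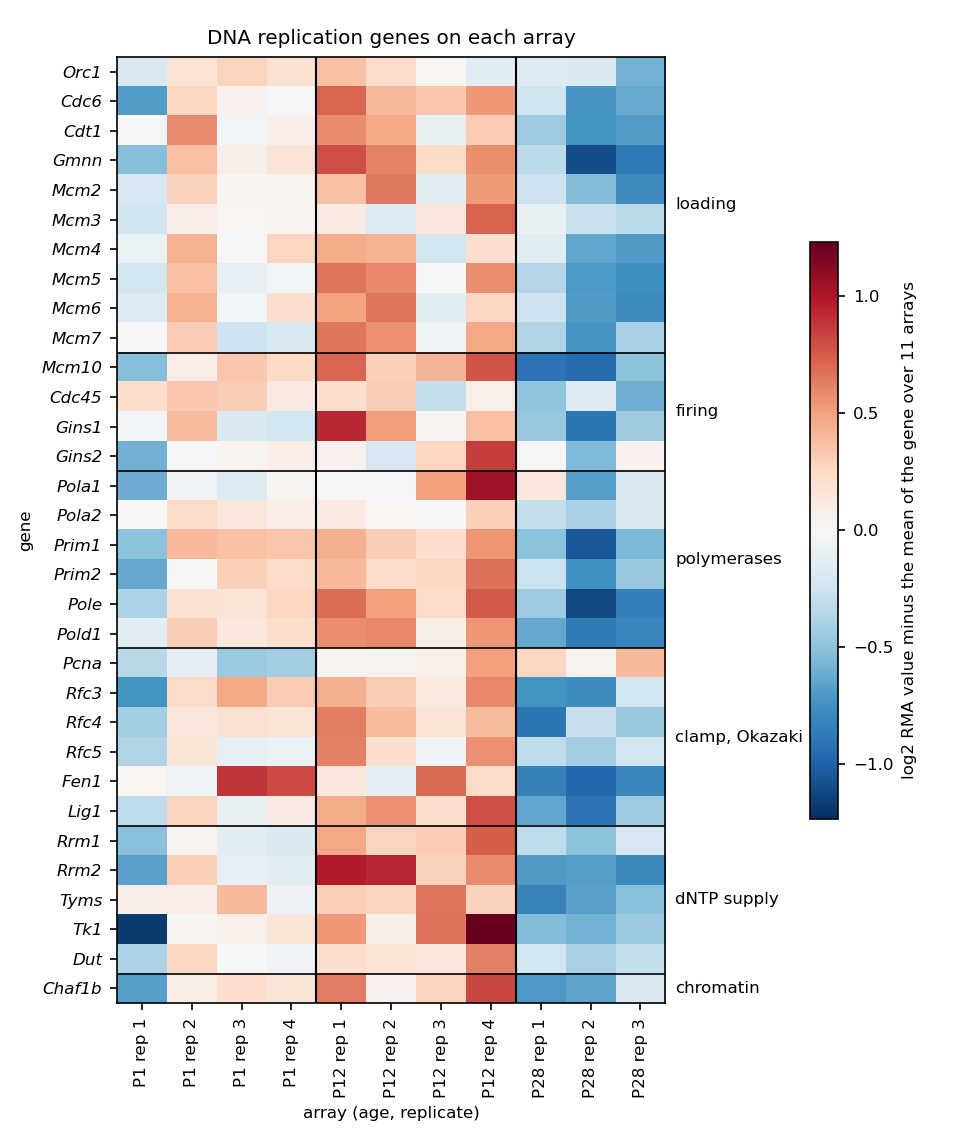
Log2 RMA value of each of 32 replication genes (rows, grouped by role) on each of 11 arrays (columns) as the difference from the mean of that gene over all arrays (colour scale, log2). The P12 columns are mostly red and the P28 columns mostly blue, except in the row of Pcna, and the first P1 column is paler or bluer than the other P1 columns in most rows.

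These counts depended on single arrays and on the scaling to unequal degrees. Of the 27 genes that fell in P28 against P12, 23 fell in every one of the 11 fits that left out 1 array. The exceptions were Mcm4 (without P28 replicate 2 or 3), Cdc45 (without P12 replicate 1 or 2 or P28 replicate 1 or 3), Pola2 (without P12 replicate 4 or P28 replicate 1 or 2) and Dut (without P28 replicate 2). Of the 19 that fell in P28 against P1, 9 did so in all 11 fits, and the count was 12 without P1 replicate 2 and 10 without P28 replicate 2. Of all genes, 13.3% and 13.5% fell in these fits. None of the 3 increases from P1 to P12 passed in all 11 fits, and the count was 1 without P12 replicate 1 or 4 and 6 without P12 replicate 3. The share of all genes that rose was 2.46% without P12 replicate 1, 2.33% without replicate 4 and 5.44% without replicate 3. Centring each array on its median moved the median change of all genes to -0.20 in P28 against P12 and to -0.22 in P28 against P1, with 30 and 26 replication genes fallen and medians of -1.11 and -0.77. The shares of all genes that rose and fell were then 11.8% and 30.0% in P28 against P12 and 15.1% and 33.7% in P28 against P1.

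The loading group, 10 genes of the Mcm ring, its loaders and their inhibitor, had 8 members that fell in P28 against P12 and 0 that rose (median -0.90). Gmnn, which encodes geminin, the inhibitor of Cdt1, had the largest difference among the ages in this group. Its arrays read 7.68, 8.57, 8.28 and 8.37 at P1, 9.001, 8.82, 8.43 and 8.77 at P12, and 7.88, 7.12 and 7.34 at P28. All P28 arrays lay below all P12 arrays, and the highest of them lay above P1 replicate 1. Gmnn fell 2.48-fold in P28 against P12 (-1.31 ± 0.22, adjusted p = 0.000343) and 1.72-fold in P28 against P1 (-0.78 ± 0.22, adjusted p = 0.0114), and the latter call ended without P28 replicate 2. Orc1, the largest subunit of the origin recognition complex, changed least from P1 to P12 (0.01 ± 0.15). It was at 5.90, 6.26, 6.37 and 6.27 at P1, 6.45, 6.33, 6.12 and 5.95 at P12, and 5.93, 5.91 and 5.51 at P28. The P28 arrays of Orc1 lay just below the P12 arrays, and the difference did not pass (-0.43 ± 0.16, adjusted p = 0.0579). These values lie close to the level below which a probe set counted as dim (5.64).

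The loaders Cdc6 and Cdt1 both fell in P28 against P12 (-1.03 ± 0.20 and -0.94 ± 0.18). Cdc6 went from 7.74 ± 0.41 at P1 to 8.33 ± 0.17 at P12 (SD, n = 4 each) with arrays that did not overlap, yet this change did not pass (0.59 ± 0.18, adjusted p = 0.0698). Cdt1 also fell in P28 against P1 (-0.78 ± 0.18), where Cdc6 did not pass (-0.43 ± 0.20, adjusted p = 0.104). The next probe set of Cdt1 gave -0.41 in P28 against P12 and -0.19 in P28 against P1, neither of which passed. The 6 subunits of the Mcm ring had unequal changes, and the differences between them were not tested. Mcm5 had the largest decrease in P28 against P12 (-1.06 ± 0.19), followed by Mcm7 (-0.91 ± 0.19), Mcm6 (-0.89 ± 0.20), Mcm2 (-0.87 ± 0.19) and Mcm4 (-0.71 ± 0.19). Mcm3 had the smallest change (-0.43 ± 0.18, adjusted p = 0.0811) and overlapped between all ages. Whether Mcm3 differs from the other subunits was not tested, and its 5 probe sets disagreed, with changes from -1.01 to 0.07. The probe set at -1.01, above the dim level, passed (adjusted p = 0.000846 in limma). It also passed in P28 against P1 (-0.86, adjusted p = 0.00222), and the others passed in neither comparison. The next probe sets of the other subunits gave another order. They read -0.83 for Mcm6, -0.72 for Mcm7, -0.61 for Mcm5, -0.60 for Mcm4 and -0.40 for Mcm2. Those of Mcm5 and Mcm2 did not pass. In P28 against P1, Mcm2, Mcm4, Mcm5 and Mcm6 fell (-0.55 to -0.68). Each of these calls ended without P28 replicate 2 and without P28 replicate 3, those of Mcm2, Mcm4 and Mcm5 also without P1 replicate 2, and that of Mcm2 also without P1 replicate 3 or 4. In the same comparison Mcm7 (-0.47 ± 0.19, adjusted p = 0.062) and Mcm3 (-0.20 ± 0.18) did not pass.

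Among the 4 genes that turn the loaded ring into a working helicase, 3 fell in P28 against P12. Mcm10, which binds the helicase as it is activated, was at 6.68, 7.30, 7.54 and 7.45 at P1, 7.92, 7.50, 7.62 and 7.98 at P12, and 6.30, 6.25 and 6.70 at P28. Every P28 array lay below every P12 array, and only P1 replicate 1 came down to the P28 range. Mcm10 fell 2.53-fold in P28 against P12 (-1.34 ± 0.20, adjusted p = 0.000145) and 1.77-fold in P28 against P1 (-0.83 ± 0.20, adjusted p = 0.00477). Cdc45, the helicase cofactor, had a small negative change from P1 to P12 (-0.17 ± 0.15, adjusted p = 0.568). Its arrays read 7.14, 7.25, 7.23 and 7.03 at P1, 7.14, 7.23, 6.63 and 6.99 at P12, and 6.43, 6.77 and 6.32 at P28. P12 replicate 3 overlapped the P28 arrays, and all P1 arrays lay above them. Cdc45 fell in P28 against P12 (-0.49 ± 0.16, adjusted p = 0.0271) and in P28 against P1 (-0.66 ± 0.16, adjusted p = 0.00415). Its other probe set gave -0.15 and 0.32 in these comparisons, neither of which passed, and both calls also ended with the mean of the probe sets and with the Gapdh 3′ minus 5′ difference as a covariate. Of the measured GINS subunits, Gins1 fell in P28 against P12 (-1.06 ± 0.20) and Gins2 did not pass (-0.40 ± 0.24, adjusted p = 0.227), and whether they differ was not tested.

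Of the 6 genes of the polymerases and primase, 5 fell in P28 against P12 (median -0.98) and 4 in P28 against P1 (median -0.66). Pold1, the catalytic subunit of polymerase delta, had the largest difference among the ages of all 32 genes. It was at 9.72, 10.16, 9.98 and 10.07 at P1, 10.43, 10.45, 9.93 and 10.40 at P12, and 9.22, 8.98 and 9.05 at P28. The P28 arrays lay below every array of the other ages, while P1 and P12 overlapped through P12 replicate 3. Pold1 fell 2.32-fold in P28 against P12 (-1.22 ± 0.15, adjusted p = 3.63e-05) and 1.87-fold in P28 against P1 (-0.90 ± 0.15, adjusted p = 0.000366). Its other probe set gave smaller changes of -0.64, which passed, and -0.38, which did not (adjusted p = 0.0708). Pole, the catalytic subunit of polymerase epsilon, went from 7.46 ± 0.30 at P1 and 7.96 ± 0.23 at P12 (SD, n = 4 each) to 6.61 ± 0.33 at P28 (SD, n = 3), and it fell against both (-1.35 ± 0.19 against P12 and -0.85 ± 0.19 against P1). The primase subunits Prim1 and Prim2 fell in P28 against P12 (-1.08 ± 0.21 and -0.88 ± 0.21), and Prim1 also in P28 against P1 (-0.85 ± 0.21). The next probe set of Prim1 gave -0.77, which passed, and -0.46, which did not. That of Prim2 gave -0.42 and 0.07 in these comparisons, neither of which passed.

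Polymerase alpha, the partner of primase, had smaller changes in P28 against P12 than Pold1 and Pole. Pola2, its regulatory subunit, had the smallest P12 against P1 change of the group (-0.01 ± 0.11) and was at 8.02, 8.26, 8.16 and 8.11 at P1, 8.13, 8.05, 8.02 and 8.32 at P12, and 7.73, 7.62 and 7.84 at P28. The P28 arrays were below all others by a narrow margin. Pola2 fell in both comparisons with P28 (-0.40 ± 0.12 and -0.41 ± 0.12, adjusted p = 0.0229 and 0.0181), and the P28 against P12 call ended without P12 replicate 4 or P28 replicate 1 or 2 and with the replicate number as a block. The P28 against P1 call ended without P28 replicate 1 or 2. The catalytic subunit Pola1 overlapped between ages and did not pass in P28 against P12 (-0.62 ± 0.25, adjusted p = 0.0771) or in P28 against P1 (-0.05 ± 0.25). Differences between genes were not tested.

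In the group of clamp, clamp loader and Okazaki fragment enzymes, 5 of 6 genes fell in P28 against P12 and the clamp did not. Lig1, the ligase that seals Okazaki fragments, was at 9.26, 9.85, 9.48 and 9.68 at P1, 10.03, 10.14, 9.79 and 10.37 at P12, and 8.93, 8.67 and 9.13 at P28. All P28 arrays lay below all other arrays, and the P1 and P12 ranges touched. Lig1 fell 2.25-fold in P28 against P12 (-1.17 ± 0.17, adjusted p = 0.000132) and 1.58-fold in P28 against P1 (-0.66 ± 0.17, adjusted p = 0.00792). The clamp loader subunits Rfc3, Rfc4 and Rfc5 fell in P28 against P12 (-0.94 ± 0.24, -0.94 ± 0.18 and -0.66 ± 0.17). In P28 against P1, Rfc3 (-0.64 ± 0.24, adjusted p = 0.0494) and Rfc4 (-0.56 ± 0.18, adjusted p = 0.0252) passed, and Rfc5 did not (-0.22 ± 0.17). The Rfc3 call was kept in 2 of the 11 fits that left out 1 array and ended with the replicate number as a block, and the Rfc4 call ended without P1 replicate 2, 3 or 4 or P28 replicate 1. The next probe sets of Rfc3 and Rfc4 gave -0.40 and -0.27 in P28 against P12. In P28 against P1 these probe sets gave -0.29 and 0.08, and none of these values passed.

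Pcna, the sliding clamp, was the member that rose against the majority in P28 against P1. It was at 11.06, 11.29, 10.94 and 10.97 at P1, 11.44, 11.44, 11.46 and 11.90 at P12, and 11.66, 11.44 and 11.80 at P28. Every P12 and P28 array lay above every P1 array, and the P12 and P28 arrays overlapped. From P1 to P12 Pcna rose 1.41-fold (0.50 ± 0.14, adjusted p = 0.047), did not pass in P28 against P12 (0.07 ± 0.15, adjusted p = 0.753), and rose 1.49-fold in P28 against P1 (0.57 ± 0.15, adjusted p = 0.00804). The P12 against P1 call was kept in 3 of 11 fits that left out 1 array and ended with the replicate number as a block (adjusted p = 0.0626). Both increases lost their call after a further quantile normalization (0.23 and 0.29), and after median centring the P28 against P12 value was -0.10. A single probe set stands for Pcna, so no other probe set could be set beside it.

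Fen1, the flap nuclease of Okazaki fragments, had the largest decrease of all members in P28 against P1. Its arrays read 10.91, 10.81, 11.76 and 11.68 at P1, 11.01, 10.76, 11.58 and 11.11 at P12, and 10.05, 9.91 and 10.07 at P28. The P28 arrays lay below all others, and the first and last pairs of P1 arrays lay apart from each other. Fen1 fell 2.15-fold in P28 against P12 (-1.10 ± 0.24, adjusted p = 0.00235) and 2.42-fold in P28 against P1 (-1.28 ± 0.24, adjusted p = 0.000649). Its other probe set gave -0.41 and 0.31 in these comparisons, neither of which passed.

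All 5 genes of deoxynucleotide supply fell in P28 against P12 (median -1.05), and this group held 2 of the 3 genes that rose in P12 against P1. Rrm1 and Rrm2 encode the large and small subunits of ribonucleotide reductase, which makes deoxynucleotides. Rrm2 was at 10.08, 11.04, 10.64 and 10.61 at P1, 11.73, 11.68, 11.03 and 11.33 at P12, and 10.05, 10.06 and 9.96 at P28. The P28 arrays were close together and below all others, and P12 replicate 3 lay just below P1 replicate 2. Rrm2 rose 1.80-fold in P12 against P1 (0.85 ± 0.19, adjusted p = 0.0168) and fell 2.67-fold in P28 against P12 (-1.42 ± 0.21, adjusted p = 0.000115), the largest decrease of all members in that step. Rrm1 was at 9.53, 10.09, 9.91 and 9.86 at P1, 10.51, 10.32, 10.35 and 10.79 at P12, and 9.73, 9.54 and 9.84 at P28. The P12 arrays lay above all others, and P1 and P28 overlapped. Rrm1 rose 1.57-fold in P12 against P1 (0.65 ± 0.15, adjusted p = 0.0168) and fell 1.73-fold in P28 against P12 (-0.79 ± 0.16, adjusted p = 0.00141). The increase of Rrm1 lost its call without P12 replicate 4 and that of Rrm2 without P12 replicate 1, and both lost it after quantile normalization. That of Rrm1 also ended with the mean of its probe sets and with its next probe set (0.47, adjusted p = 0.253), while the other probe sets of Rrm2 passed with 1.37 and 1.15. In P28 against P12 these probe sets of Rrm2 gave smaller changes of -0.72 and -0.34, and the next one of Rrm1 gave -0.37. None of these decreases passed (adjusted p = 0.114, 0.339 and 0.273 in limma).

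Tyms, thymidylate synthase, had the largest difference among the ages in this group but lay near background. It was at 4.98, 4.98, 5.30 and 4.83 at P1, 5.19, 5.17, 5.55 and 5.18 at P12, and 4.07, 4.23 and 4.38 at P28. The P28 arrays lay below all others, yet all values were under the dim level of 5.64, as were the means of its other probe sets. Tyms fell in P28 against P12 (-1.05 ± 0.15, adjusted p = 8.54e-05) and in P28 against P1 (-0.79 ± 0.15, adjusted p = 0.000668), and the size of these changes is uncertain at this level. Tk1, the salvage thymidine kinase, had the largest change of all members from P1 to P12 (0.86 ± 0.27), which did not pass (adjusted p = 0.0769) and passed with the replicate number as a block. Tk1 fell in P28 against P12 (-1.15 ± 0.30), as did the dUTP hydrolase Dut (-0.59 ± 0.16), and neither passed in P28 against P1 (-0.29 ± 0.30 and -0.26 ± 0.16). Chaf1b, the measured subunit of chromatin assembly factor 1, was at 7.20, 7.97, 8.09 and 8.02 at P1, 8.51, 7.93, 8.15 and 8.70 at P12, and 7.16, 7.23 and 7.68 at P28. The P28 arrays lay below the P12 arrays and overlapped P1 replicate 1. Chaf1b fell in P28 against P12 (-0.96 ± 0.23, adjusted p = 0.00499) and did not pass in the other comparisons (0.50 ± 0.21 and -0.46 ± 0.23).

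**Figure D3:**
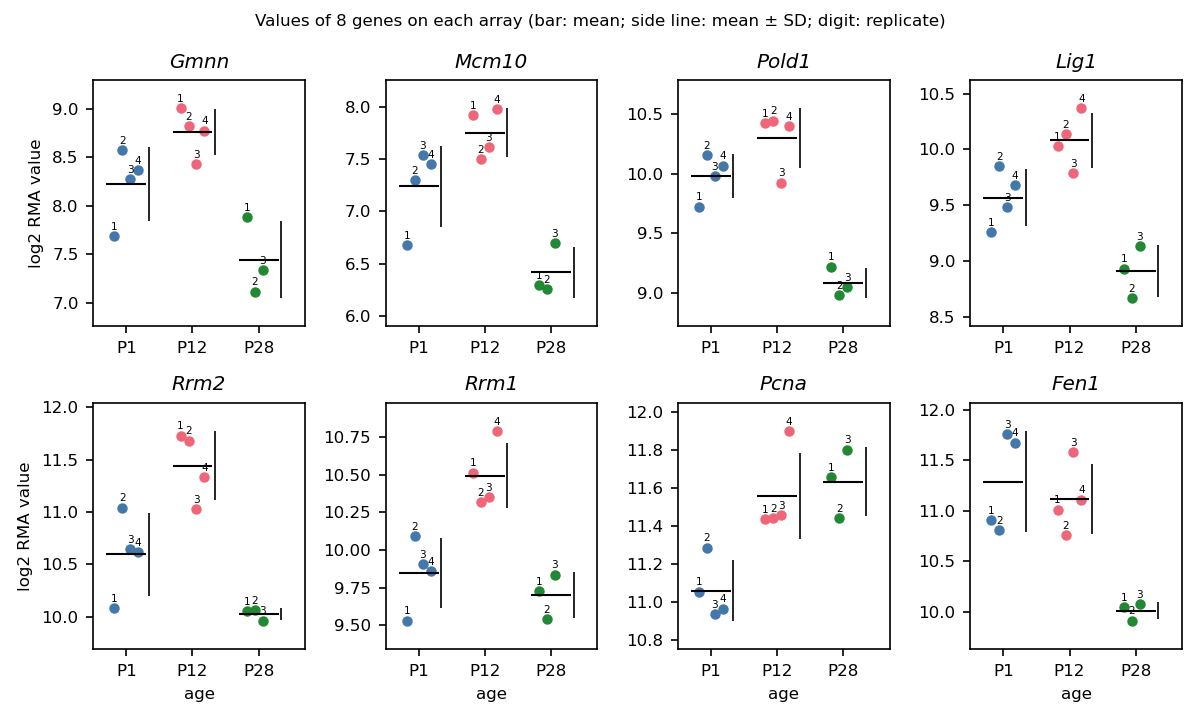
Log2 RMA value (vertical axis) of 8 replication genes on each array (points, digit = replicate) at P1, P12 and P28, with the mean (horizontal bar) and SD (side line). Gmnn, Mcm10, Pold1, Lig1 and Rrm2 are lowest at P28, Pcna at P28 lies between 11.44 and 11.80 and above all P1 arrays, and Fen1 at P1 splits into 10.81 to 10.91 and 11.68 to 11.76.

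P1 replicate 1 was the lowest of the P1 arrays for 25 of 32 members (78.1%, against 23.7% of all genes), with a median difference of -0.42 from the mean of the other P1 arrays. Of the P1 arrays it also had the highest summed level of the neutrophil (10.79), endothelial (9.88), erythroid (9.65), lymphoid (7.52), satellite cell (13.79) and Schwann cell and melanocyte (8.85) markers, and the lowest of the macrophage markers (10.34). The part of these levels in the result was not tested. Without it the median change of the members in P12 against P1 was 0.24 and 2 rose (4.72% of all genes). In P28 against P1 the median without it was -0.67 and 23 fell (15.2% of all genes). Replicates 1 and 2 of P1 and P12 also had a higher Gapdh 3′ minus 5′ difference (2.59 to 3.05) than replicates 3 and 4 (1.32 to 1.69). Within these sets of arrays the median P12 against P1 change of the members was 0.48 and 0.31, with 0 calls in each (0.39% and 3.66% of all genes rose). With the set as a block 6 members rose (8.42% of all genes).

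The mitosis genes took part in both steps with larger median changes. Among 25 of them the calls in P12 against P1 were 18 up and 0 down (median 0.96), those in P28 against P12 were 0 up and 25 down (median -1.33), and those in P28 against P1 were 0 up and 8 down (median -0.42). Beside them the replication genes had medians of 0.40, -0.94 and -0.57. Of all genes, 4.53% rose and 2.04% fell in P12 against P1, and 15.7% rose and 15.7% fell in P28 against P12. In P28 against P1, 20.1% of all genes rose and 16.4% fell. Without P1 replicate 1 the mitosis genes had a median of 0.79 in P12 against P1 and 13 rose, and within the array sets the medians were 1.13 and 0.82. The 18 increases were 12 without P1 replicate 3 or 4 and 8 without P12 replicate 1 or 4. Of all genes, 2.30% and 2.23% rose without P1 replicate 3 and 4, and 2.46% and 2.33% without P12 replicate 1 and 4. The 8 decreases in P28 against P1 were 12 without P1 replicate 1, 1 without P1 replicate 2 or 4 or P28 replicate 1, 4 without P1 replicate 3, 3 without P28 replicate 2 and 12 without P28 replicate 3. The share of all genes that fell in these fits was between 13.0% (without P28 replicate 3) and 15.9% (without P1 replicate 3). At an unadjusted p under 0.05 in limma, 25 mitosis genes were higher and 0 lower in P12 against P1. In P28 against P12, 25 were lower, in P28 against P1, 10 were lower, and 0 were higher in either. The difference between the lists was not tested.

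**Figure D4:**
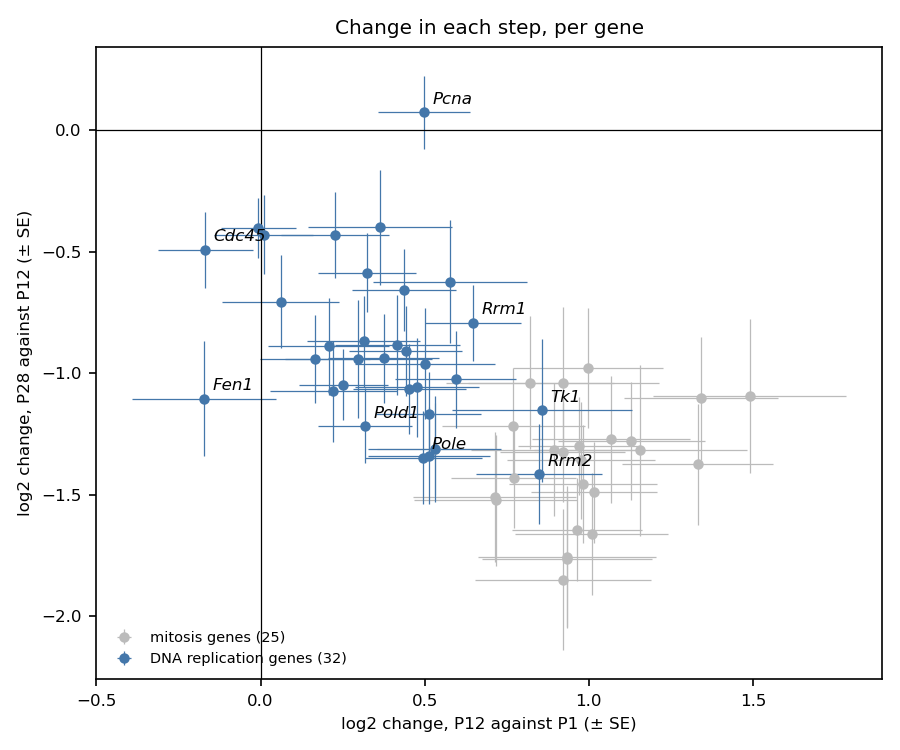
Log2 change in P12 against P1 (horizontal axis, ± SE) and in P28 against P12 (vertical axis, ± SE) of the 32 replication genes (blue) and 25 mitosis genes (grey). The replication genes range from -0.17 to 0.86 on the horizontal axis, the mitosis genes lie mostly to their right with a median of 0.96, and Pcna is the point above 0 on the vertical axis.

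Other genes of DNA replication moved with the members in part. Among 58 such genes the calls in P12 against P1 were 5 up and 1 down (median 0.23), those in P28 against P12 were 1 up and 38 down (median -0.63), and those in P28 against P1 were 4 up and 29 down (median -0.42). In P12 against P1, 8.62% rose and 1.72% fell (4.53% and 2.04% of all genes). In P28 against P12, 1.72% rose and 65.5% fell (15.7% and 15.7% of all genes). In P28 against P1, 6.90% rose and 50% fell (20.1% and 16.4% of all genes). The 5 increases were 1 when any of P1 replicates 1 and 4 and P12 replicates 1 and 4 was left out, 2 without P1 replicate 3, and 8 without P1 replicate 2 or P12 replicate 3. Of all genes, 4.72% and 2.23% rose without P1 replicate 1 and 4, and 2.46% and 2.33% without P12 replicate 1 and 4. The share was 2.30% without P1 replicate 3, 4.30% without P1 replicate 2 and 5.44% without P12 replicate 3. The 29 decreases were 19 without P28 replicate 2, where 13.5% of all genes fell. Among 15 genes of origins, licensing and firing, 9 fell in P28 against P12, among them Cdc7, the kinase that fires origins (-1.17 ± 0.21), the origin subunit Orc5 (-0.87 ± 0.16) and the Mcm-binding Mcmbp (-0.74 ± 0.17). Among 11 genes that copy chromatin and its marks, 10 fell, including the maintenance methyltransferase Dnmt1 (-1.30 ± 0.21), its partner Uhrf1 (-1.22 ± 0.24) and the remodeller Hells (-1.10 ± 0.21). Among 23 polymerase, clamp loader and fork subunits, 16 fell and 1 rose. Wdhd1, a fork protein that links helicase and polymerase, fell 3.52-fold (-1.82 ± 0.19, adjusted p = 8.11e-06), and the nuclease and helicase Dna2 fell 3.34-fold (-1.74 ± 0.21, adjusted p = 2.19e-05).

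Pold4, the smallest subunit of polymerase delta, moved against its catalytic partner Pold1. It was at 6.84, 6.82, 6.91 and 6.84 at P1, 6.66, 6.43, 6.78 and 7.05 at P12, and 7.86, 8.54 and 8.38 at P28. Every P28 array lay above every other array. Pold4 rose 2.90-fold in P28 against P12 (1.53 ± 0.17, adjusted p = 1.16e-05) and 2.66-fold in P28 against P1 (1.41 ± 0.17, adjusted p = 1.6e-05). The subunit Pold2 (0.64 ± 0.18) and the RNase H2 subunit Rnaseh2c (0.52 ± 0.18) also rose in P28 against P1. Of the 4 increases in this comparison, 2 were called without P28 replicate 2 (Nme1 and Pold4) and 1 after quantile normalization (Pold4). After that normalization the P28 against P1 values were 0.46 for Pold2, 0.30 for Rnaseh2c and 0.39 for Nme1, none of which passed. With the Gapdh 3′ minus 5′ difference as a covariate, Pold2 (0.46), Rnaseh2c (0.31) and Nme1 (0.53) did not pass either. The call of Rnaseh2c also ended after median centring and without P1 replicate 1 or P28 replicate 1. The neutrophil, macrophage, endothelial, erythroid and fibro-adipogenic sums given above were higher at P28 too, and their part in these increases was not tested. In deoxynucleotide supply, 3 of 9 further genes fell in P28 against P12, led by the salvage kinase Dck (-1.68 ± 0.19) and the thymidylate kinase Dtymk (-0.72 ± 0.15). Nme1, a nucleoside diphosphate kinase, was higher than at P1 at both later ages (rose by 0.78 ± 0.14 at P12 and 0.63 ± 0.15 at P28). Shmt1, which feeds folate-bound carbon to thymidylate synthesis, was lower at both (-0.57 ± 0.11 at P12 and -0.64 ± 0.12 at P28, both passing).

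The size of the decrease at P28 depended on the probe set that represented a gene. For 18 members, both the probe set of highest mean and the next one lay above the dim level. In P28 against P12 the next probe set had the less negative change for 18 of 18 (63.6% of 4981 genes), with medians of -0.92 and -0.42, and the count that fell was 16 with the first and 6 with the next. Over the 4981 genes the medians were -0.14 with the first and 0.02 with the next, and 1313 and 926 fell. In P28 against P1 the medians of the 18 members were -0.63 and -0.07, 12 and 3 fell, and 8 members had opposite signs. Over the 4981 genes the medians in that comparison were -0.01 and 0.15, 1112 and 830 fell, and 1666 had opposite signs. Whether the members differ from all genes there was not tested. The 13 mitosis genes with such a pair had medians of -1.49 and -1.40 in P28 against P12, and 7 of 13 were less negative. The 6 genes whose next probe set fell in P28 against P12 were Mcm4, Mcm6, Mcm7, Mcm10, Prim1 and Pold1, and the 3 in P28 against P1 were Mcm6, Mcm7 and Mcm10. Fen1 had the widest gap between the 2 probe sets in P28 against P1 (-1.28 and 0.31). The 3 probe sets of Rrm2 gave -0.57, 0.65 and 0.82, of which the first and the last passed in opposite directions. The direction of P28 against P12 was the same for both probe sets of all 18 members, and that of P28 against P1 was not. The Gapdh 3′ minus 5′ difference was lowest at P28, as given above, and its part in the gap between probe sets was not tested. With that difference as a covariate, 23 members fell in P28 against P12 and 8 in P28 against P1 (8.66% and 9.48% of all genes).

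**Figure D5:**
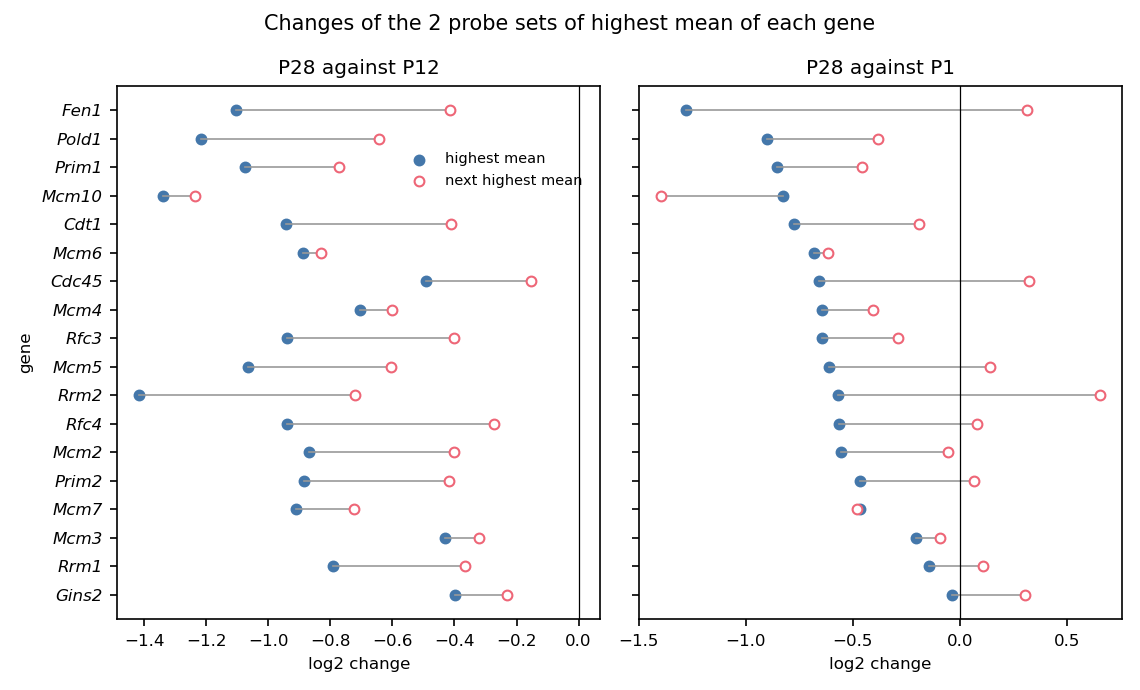
Log2 change (horizontal axes) in P28 against P12 (left) and P28 against P1 (right) of 18 replication genes (rows), from the probe set of highest mean (filled) and the next one (open). In P28 against P12 all 18 open points lie to the right of the filled points and below 0, and in P28 against P1 8 pairs lie on both sides of 0.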

How the data were processed

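RNA of GFP-positive muscle cells was measured on 11 Affymetrix Mouse430_2 arrays, grouped by the age in their titles. Each probe set has a deposited log2 value from the authors' processing, for which the submitters' processing notes list the names RMA, affy and Affymetrix Expression Console with no version and no order of steps. Minima were higher at P28 (1.65 to 2.09) than at the younger ages (-0.78 to 0.48), and whether the P28 arrays were processed apart was not tested. Arrays give no read depth, so their number limits the precision. Of 45101 probe sets, 34945 carried 1 gene symbol in the platform annotation, 932 several and 9160 none, and 64 controls were left out. This gave 18193 genes.

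limma 3.58.1 under R 4.3.3 gave the tests (lmFit on group means of all 11 arrays, contrasts, eBayes, 8 residual and 6.62 prior degrees of freedom, two-sided), with Benjamini-Hochberg adjustment over all genes. The test was checked on simulated data. Levels are means ± SD. A probe set was called dim at or under 5.64, the highest Trp control mean plus 2. Members, lists and tests were chosen with earlier results of these data known. Values of every array are given in each role group for the gene with the largest F over the ages, for the one with the largest decrease or smallest change from P1 to P12, and for genes called against the majority. Rrm1 and Rrm2 were added as the other genes called from P1 to P12. Of other replication genes, up to 3 per list with the largest F and those called against their list are named. Deviations of same-numbered P1 and P12 arrays from their group means correlated at 0.146, 0.265, 0.339 and 0.180. All lay above the 0.1 taken as the limit, but only 2 of 4 P1 arrays correlated best with the same-numbered P12 array. Those with P28 correlated at -0.085 to 0.129, so the highest of them passed the limit too. Same-numbered P1 and P12 arrays also share the array set, so these values cannot show whether the numbers mark pairs. The main test used no pairing, and the replicate number as a block was an alternative. Alternatives were other scalings, probe set rules, filters, weights and blocks, a 3′ to 5′ covariate and leaving out each array. Fits within array sets and the next brightest probe set were added after seeing the data. Motifs were searched in RefSeq promoters (GRCm38.p6).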

Additional observations from a re-analysis of the deposited data

Results flagged for a closer look

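In groups of 4 arrays, the highest or lowest array was set against the others by Dixon's criterion at its usual critical value, which marked 11 of 64 groups of the replication genes. Chance marks about 1 in 20 groups, and over all genes it marked 5.56% of the P1 groups and 4.59% of the P12 groups. At P1 it marked 6 genes, all in replicate 1 as the lowest array: Gins2 at 7.31 (others 7.88 to 7.98), Prim1 at 8.43 (others 9.28 to 9.34), Pole at 7.02 (others 7.57 to 7.67), Rfc4 at 8.24 (others 8.79 to 8.84), Tk1 at 6.69 (others 7.91 to 8.02) and Chaf1b at 7.20 (others 7.97 to 8.09). At P12 it marked 5 genes. Replicate 3 was the lowest array for Mcm5 at 10.67 (others 11.24 to 11.33) and Pold1 at 9.93 (others 10.40 to 10.45) and the highest for Tyms at 5.55 (others 5.17 to 5.19). Replicate 4 was the highest for Pcna at 11.90 (others 11.44 to 11.46) and Dut at 10.28 (others 9.78 to 9.84).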

How the results depend on the processing

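The number of replication genes that fell in P28 against P12 was 21 to 30 over the settings counted on all members and 24 to 28 when 1 array was left out. The next brightest probe set could be counted for 18 members only, of which 6 fell against 16. Other counts moved further. The 3 increases in P12 against P1 became 0 after quantile normalization, 0 within each array set and 5 without dim probe sets. They became 9 with array weights, 6 with array set as a block, 5 with the 3′ to 5′ covariate, and 1 to 6 when 1 array was left out. Of all genes, 4.53% rose in the main fit and 3.17% after quantile normalization. This share was 0.39% and 3.66% within the array sets, 8.80% without dim probe sets and 11% with array weights. It was 8.42% with array set as a block and 7.52% with the covariate, so the higher counts came with more calls over all genes. When 1 array was left out it was 2.23% to 5.44%. The 19 decreases in P28 against P1 became 10 when all probe sets of a gene were averaged, 12 without the _x_at and _s_at probe sets and 8 with the covariate, and 10 to 23 when 1 array was left out. Of all genes, 16.4% fell in P28 against P1 in the main fit and also with averaged probe sets. This share was 15.7% without the _x_at and _s_at probe sets and 9.48% with the covariate. The single increase there became 0 after quantile normalization and 0 with the covariate. Signs reversed in P28 against P1 for Rrm2 with the mean of its probe sets (0.30). Without the _x_at and _s_at probe sets, which for these genes leaves the next brightest one, and with the next brightest probe set itself, they reversed for Mcm5 (0.14), Rfc4 (0.078), Fen1 (0.31) and Rrm2 (0.65), and with the latter also for Cdc45 (0.32). None of these values passed, and the cause was not tested beyond the change of probe set. With the replicate number as a block, 3 genes rose in P12 against P1 (Pcna lost its call and Tk1 gained one), 26 fell in P28 against P12 (without Pola2), and 18 fell and 1 rose in P28 against P1 (without Rfc3), and no other call changed. Over the measured members and the settings, 772 of 817 values kept their direction and call in P12 against P1, 670 of 721 in P28 against P12 and 608 of 721 in P28 against P1. Sign changes of values that passed in neither setting (44 of 2259) were not counted as reversals. Changes of dim probe sets such as that of Tyms are limited by their distance from background.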
